A study of Arabidopsis thaliana with 14 samples.

Results

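Fragments of *FLC* protected from micrococcal nuclease (MNase) were compared between warm-grown and cold-treated wild-type seedlings of *Arabidopsis thaliana*. Of the 14 libraries of the series, the 7 WT FRI libraries were used, chosen by their labelled genotype: 3 of WT FRI warm and 4 of WT FRI 1W cold. WT FRI is the Columbia accession with a functional *FRIGIDA* allele brought in from San Feliu-2, and both groups carry it. Warm seedlings had grown for 10 days at 22 °C, and 1W cold seedlings had then spent 1 week at 5 °C, so that the cold seedlings were also older by that week. The other 7 libraries, from the *vrn1-4* FRI mutant under the same conditions, entered the shared estimate of spread in the fits and a comparison of the response at the end. Each library came from pooled whole seedlings, so cell types and tissues cannot be told apart in these data. The labels name the libraries of a group as biological replicates (bio_rep) but do not say that they came from separate sowings. If they did not, p-values measure only the spread between these libraries.

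*FLC* encodes a MADS-box transcription factor that represses flowering. *FRIGIDA* keeps the gene active in the warm, and prolonged cold silences it through Polycomb, a process called vernalization. MNase cuts DNA between nucleosomes and then trims inward, so the length of a fragment tells how much DNA stayed protected and its ends tell where the enzyme stopped. The enzyme prefers to cut next to A and T. A whole nucleosome core protects DNA of nearly the longest lengths selected here, and shorter fragments come from nucleosomes that were trimmed further, partly unwrapped or incomplete, which the length alone does not separate.

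The target region runs from 3172382 to 3181949 on chromosome 5 of TAIR10, and all 237 *FLC* bait sequences matched the reference used here at their stated coordinates. *FLC* is read from the minus strand, from its transcription start site (TSS) at 3179448 to 3173382, through 7 exons. Positions are given below as distances downstream of the TSS, with negative values upstream, and the upstream end of a fragment is its end towards the promoter. An annotated antisense gene overlaps *FLC*, and double-stranded fragments do not separate the strands. Each deposited value is the fraction of a library's *FLC* fragments that share 1 start and 1 end, for lengths of 100 to 150 bp. It is given here as a share in percent, and since each library sums to 1, a gain in one place requires a loss in another and the total occupancy of *FLC* is not measured.

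The depth is not given by these fractions. Distinct fragments numbered 27911, 14166 and 90960 for the warm and 46448 to 109647 for the cold libraries, and the smallest fraction was 2.09e-05 in WT FRI warm replicate 2 against 8.17e-06 or less in the other 6 libraries. Over the 7 libraries there were 176500 distinct fragments, of which 4150 were seen in all 7 and held 26.8% to 43.4% of each library. A pair of libraries stood apart. WT FRI warm replicate 2 had the fewest distinct fragments and the shortest lengths, and WT FRI 1W cold replicate 1 had another base composition at its fragment ends, so results that rest on either are also given without it.

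*FLC* fragments were longer after 1 week of cold. The mean length was 128.6, 125.4 and 130.7 bp in WT FRI warm and 131.7, 132.9, 132.7 and 132.4 bp in WT FRI 1W cold. Every cold library lay above every warm library, and the cold libraries were the more alike, at 132.4 ± 0.521 bp (SD, n = 4) against 128.2 ± 2.67 bp (SD, n = 3). The difference of 4.21 bp had a two-sided exact permutation p = 0.0286, the smallest that 3 libraries against 4 allow. Without WT FRI warm replicate 2 the difference was 2.80 bp, with an exact p = 0.0667 that is again the smallest possible, so 1 library supplied much of its size. Without WT FRI 1W cold replicate 1 it was 4.45 bp.

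The gain was in fragments close to a full core, and the loss was spread over the shorter classes. Fragments of 140 to 150 bp made up 34.7%, 26.9% and 40.5% of the warm libraries and 44.5%, 48.1%, 46.7% and 45.9% of the cold libraries. The groups did not overlap, and the mean rose by 12.3 percentage points (two-sided exact permutation p = 0.0286, 0.0357 after adjustment over 5 length classes). Fragments of 100 to 109 bp fell from 19.8% ± 3.56 (SD, n = 3) to 14.2% ± 1.20 (SD, n = 4), those of 110 to 119 bp from 13.1% ± 3.50 to 9.45% ± 0.314, and those of 120 to 129 bp from 13.8% ± 1.25 to 10.8% ± 0.209. Each of these 3 classes was lower in every cold library than in every warm one, with the same exact p = 0.0286 and adjusted p = 0.0357. The class of 130 to 139 bp was the exception, at 19.3% ± 1.53 (SD, n = 3) and 19.3% ± 0.745 (SD, n = 4), with overlapping groups and an exact p = 1. Without WT FRI warm replicate 2 the rise of the longest class was 8.69 percentage points, and the differences of the 3 shorter classes, from the shortest up, were -3.75, -1.64 and -2.38 points. The weighting mattered as well. With each distinct fragment counted once, the longest class rose by 5.62 points and the shortest 2 classes differed by -3.99 and -2.18 points, each with an exact p = 0.0286, but the 120 to 129 bp class differed by -1.16 points with an exact p = 0.114. In that setting the 130 to 139 bp class was no exception, since it was 1.71 points higher in the cold without overlap (exact p = 0.0286).

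**Figure D1:**
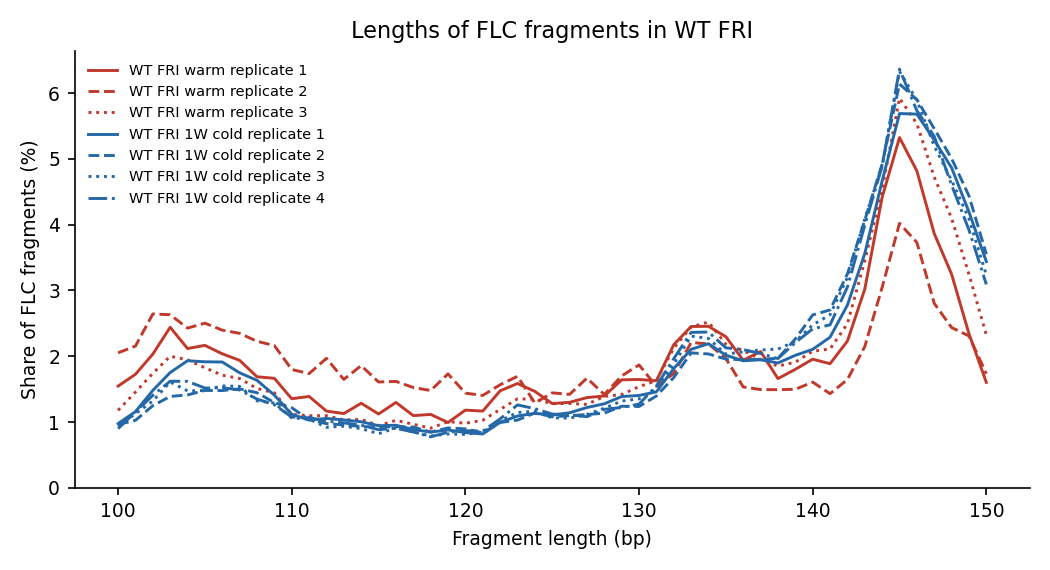
Share of *FLC* fragments (y axis, percent of the library) at each length from 100 to 150 bp (x axis), with 1 line for each of the 3 WT FRI warm (red) and 4 WT FRI 1W cold (blue) libraries. The most frequent length was 145 bp in all 7 libraries, and the cold lines lie above the warm lines at 148 to 150 bp and below them at 100 to 103 bp.

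The most frequent length stayed the same while the weight of the spectrum moved. That length was 145 bp in each of the 7 libraries, where it took 5.32%, 4.02% and 5.92% of warm and 5.69%, 6.14%, 6.33% and 6.36% of cold fragments. After averaging over 3 neighbouring lengths, the share among the shortest lengths was highest at 103 to 106 bp in all 7 libraries. The median length was 132, 126 and 135 bp in the warm and 137, 139, 138 and 138 bp in the cold, while the upper quartile moved less, from 144, 141 and 145 bp to 145 bp in all 4 cold libraries.

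Single lengths were then tested by limma on log2(share + 0.0001) over all 14 libraries. Of 51 lengths, 13 rose and 31 fell in the cold at an adjusted p below 0.05, which is 86.3% of those tested. The largest rises were at the very end of the selected range. The share of 150 bp fragments was 1.60%, 1.73% and 2.32% in the warm and 3.44%, 3.55%, 3.23% and 3.09% in the cold, a rise of 0.83 ± 0.16 (SE) on the log2 scale with a limma adjusted p = 0.00281. Lengths of 149, 148, 142 and 141 bp rose by 0.49 to 0.68 on that scale. At the other end, 101 bp fragments went from 1.73%, 2.15% and 1.46% to 1.16%, 1.03%, 1.13% and 1.15%, which fell by 0.65 ± 0.14 (SE) with the same adjusted p = 0.00281. Lengths of 100, 102, 103 and 122 bp were the other fragments with the smallest p among those that fell, by 0.46 to 0.71. The groups did not overlap at any of these 10 lengths. Lengths of 1 library are tied to each other because they sum to 1, so these are not 44 separate results. Leaving out WT FRI warm replicate 2, 5 lengths rose and 13 fell, and counting each distinct fragment once, the 150 bp rise was 0.41 and the 101 bp difference -0.35 on the log2 scale.

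The longer fragments were found along the whole locus. In the 10 parts set by the annotation, the mean length was higher in the cold by 3.90 bp (the last of 3 equal pieces of intron 1) to 4.74 bp (downstream flank). The groups did not overlap in 9 parts, each with an exact permutation p = 0.0286 and an adjusted p = 0.0318. They could pass after adjustment because most parts reached that smallest possible p together. In the first piece of intron 1 the values were 128.3, 125.1 and 130.6 bp in the warm and 130.5, 133.0, 132.7 and 132.5 bp in the cold, with an exact p = 0.0571. Exon 1 holds the +1 nucleosome and the centre of the +2 position. It had the longest fragments of all parts in both conditions, at 131.7 ± 2.36 bp (SD, n = 3) and 135.8 ± 0.405 bp (SD, n = 4). Intron 6 had the shortest, at 126.3 ± 2.59 and 130.8 ± 1.10 bp.

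**Figure D2:**
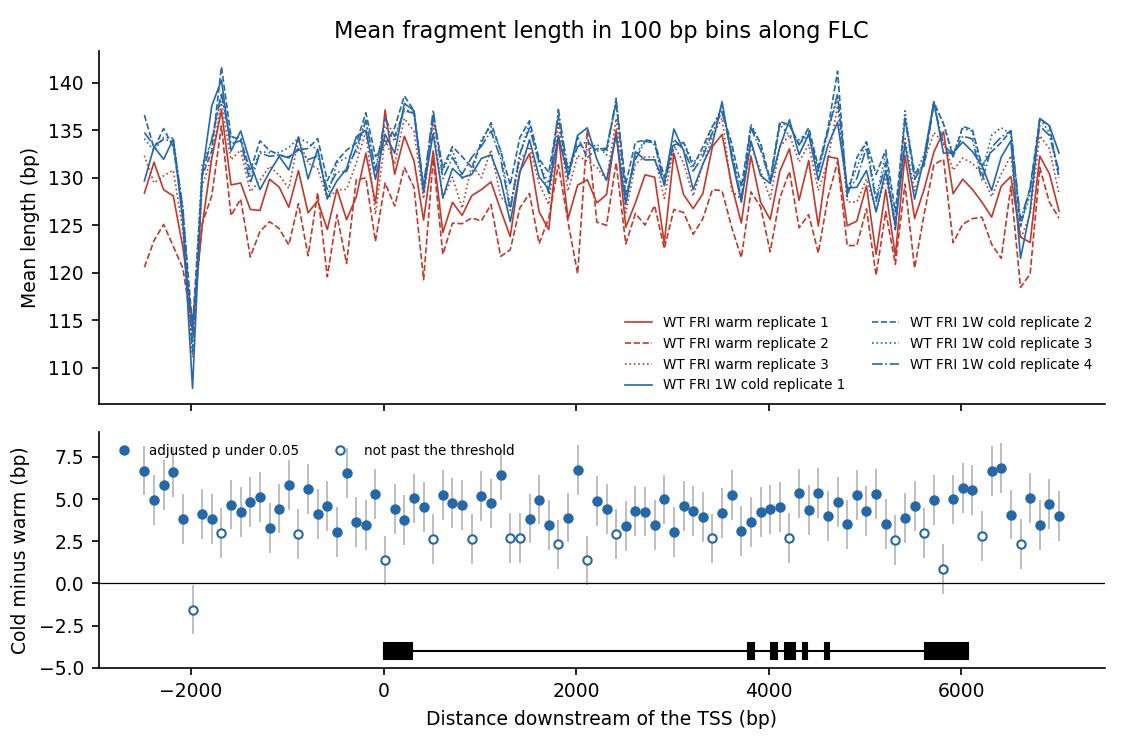
Mean fragment length in 100 bp bins (top, bp, 1 line per library, red for WT FRI warm and blue for WT FRI 1W cold) and the fitted difference of cold minus warm with its standard error (bottom, bp, filled where the adjusted p is below 0.05), against the distance from the TSS in bp, with exons as black boxes. The difference was above 0 in 95 of 96 bins, and 78 bins passed the threshold. The standard error is a value shared by all bins and does not measure the spread of each.

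The same held in 100 bp bins. Mean length was higher in the cold in 95 of 96 bins, with a median of 4.29 bp, and 78 bins (81.2%) passed the limma threshold, all towards longer fragments. The 5 bins with the smallest p lay at 2016, 6316, 6416, -2184 and -2484 bp, with gains of 6.60 to 6.85 bp. The single bin with a lower mean, centred at -1984 bp, differed by -1.55 bp and did not pass. At 52 nucleosome positions, defined as maxima of the midpoint profile, 50 (96.2%) had longer fragments and 0 had shorter ones, with a median gain of 4.41 bp and a range of 2.43 to 6.61 bp. The position nearest the +1 nucleosome gained 4.31 ± 1.45 bp (SE) and the one nearest the +2 gained 4.42 ± 1.45 bp, against 4.11 ± 1.45 bp at -1 and 5.16 ± 1.45 bp at the position nearest the end of the transcript. This standard error is a value shared by all positions in the fit and does not measure the spread at any of them. The 5 positions with the smallest p, at 6366, 1234, -798, -2295 and -1014 bp, gained 5.42 to 6.61 bp and were spread over the downstream flank, intron 1 and the upstream flank. Leaving out WT FRI warm replicate 2, 42 bins and 24 positions passed. All bins of a library shift together, so these counts describe how widely one difference was spread and are not separate results.

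No single place passed the threshold once that shared shift was taken away. Mean lengths were taken relative to the mean of their library, an analysis added after the data were seen. Of 96 bins 0 (0%) then passed the limma threshold, with 21 at an unadjusted p below 0.05, and of 52 positions 0 (0%) passed, with 6 at an unadjusted p below 0.05. Both counts were also 0 with each feature's own spread in place of the moderated one. The smallest p among the bins belonged to the one at -384 bp, where fragments were shorter than the library mean by 3.01, 4.41 and 1.90 bp in the warm and lay -0.77, 0.0032, -0.58 and -1.78 bp from it in the cold, with a limma adjusted p = 0.10. Next came a bin in the last exon, 5816 bp downstream, where an excess of 6.24, 6.57 and 3.08 bp in the warm compared with 0.87, 2.78, 3.03 and 1.09 bp in the cold, also with an adjusted p = 0.10. The bin at -1984 bp, with relative lengths of -11.6 to -23.9 bp, was the last of the 3 with the smallest p (-5.76 ± 1.69 bp, adjusted p = 0.138) and its groups overlapped. At positions -2295, 1234 and -1014 bp the adjusted p was 0.198. At the +1 position the relative length was 2.03, 1.13 and 1.29 bp in the warm and 0.81, 2.47, 1.21 and 1.83 bp in the cold, and the groups overlapped, as they did at -1 and +2. At the position nearest the transcript's end it was 0.59, 0.021 and 1.03 bp against 1.62, 1.75, 1.44 and 1.16 bp, without overlap but with an adjusted p = 0.198. Leaving out single libraries gave at most 3 such bins and 2 such positions.

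By the median, fragments reached farther on each side, but on both sides at once only at a minority of positions. Measured from the centre of each of the 52 positions, the upstream end lay farther out in the cold at 35 positions, with a median change of 2.92 bp, and the downstream end at 32, with a median of 2.24 bp. Both ends lay farther out at 15 positions. At the +1 position the upstream end moved out by 16.4 bp and the downstream end moved in by 12.1 bp, the widest change on either side. At the position 915 bp downstream the order was the opposite, with the downstream end 9.93 bp farther out and the upstream end 6.30 bp farther in.

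The bases at the fragment ends also differed. Nearly all ends had A or T as their last base inside the fragment, at 89.1% to 92.2% of upstream ends in the warm, against an A or T content of 67.1% for the target region. In the cold this was 91.3% to 91.7% in 3 libraries and 87.1% in WT FRI 1W cold replicate 1. The groups overlapped (exact p = 0.714 for upstream and 0.829 for downstream ends). The first base outside the fragment was A or T at 70.4%, 70.7% and 73.2% of upstream ends in the warm and at 77.8%, 76.9%, 75.2% and 74.6% in the cold. At downstream ends the shares were 68.3%, 68.2% and 72.0% against 76.5%, 75.8%, 73.7% and 72.9%. Every cold library lay above every warm one at both ends, by 4.67 and 5.24 percentage points on average, each with an exact permutation p = 0.0286. Adjusted over the 5 values tested this was 0.0714, so the difference did not pass after adjustment.

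The difference was nearly as large at equal lengths and about 2 times smaller when fragment frequencies were set aside. Counting each distinct fragment once, it was 2.32 points at upstream and 2.55 points at downstream ends, without overlap in either. After all libraries were given the same length distribution, with frequencies kept, it was 4.69 and 5.07 percentage points, and without WT FRI 1W cold replicate 1 it was 4.11 and 4.65. Over both ends together, the outside base was A or T more often in every cold library than in every warm one in each of the 5 length classes, by 4.18 to 5.40 points, and in 8 of the 10 gene parts. Exon 1 was the part with the least difference, at 60.1%, 58.8% and 60.8% in the warm and 66.8%, 60.1%, 58.7% and 59.9% in the cold. Read on the strand that starts at the end, the mean share of T as the outside base went from 38.3% to 41.2% and that of A from 32.2% to 34.2%, while G went from 15.8% to 12.6% and C from 13.7% to 11.96%. The second base inside was A or T at only 30.5% to 35.4% of ends in the 7 libraries, and the groups overlapped (exact p = 0.686 upstream and 0.943 downstream). The third base inside set 1 library apart, at 46.8% in WT FRI 1W cold replicate 1 against 53.5% to 60.7% in the other 6. The A+T content of whole fragments was 63.8%, 63.5% and 64.2% in the warm and 63.7%, 64.9%, 64.7% and 64.5% in the cold, with an exact p = 0.171.

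**Figure D3:**
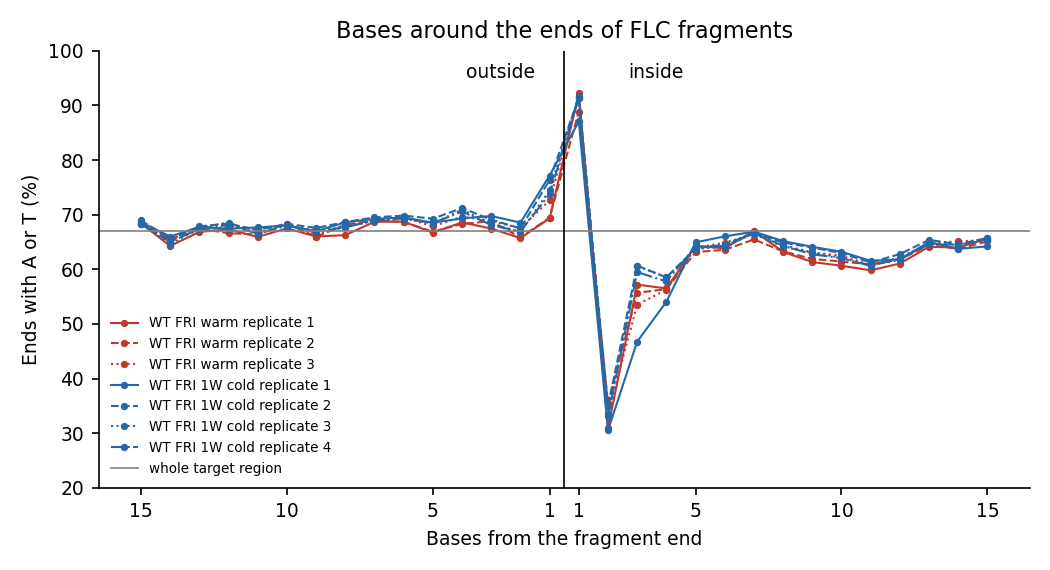
Share of fragment ends with A or T (y axis, percent, upstream and downstream ends together) at each of 15 bases outside and 15 bases inside the end (x axis), with 1 line per library (red for WT FRI warm, blue for WT FRI 1W cold) and a grey line for the target region. At the first base outside the 3 warm libraries are at 69.3% to 72.6% and the 4 cold libraries at 73.8% to 77.2%, while at the first base inside the groups overlap.

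The same ends were also read as single positions, an analysis added after the data were seen, so this is not separate support. Of 876 end positions with a mean share of at least 0.0005, 10 rose and 27 fell in the cold by limma, which is 4.22% of those tested. A or T stood outside at 637 of the 876 positions (72.7%) and, near that share, at 8 of the 10 that rose (80%). It stood outside at 15 of the 27 that fell (55.6%). Among the 239 positions with G or C outside, 64 had a higher and 175 a lower fitted share in the cold, with a median of -0.28 on the log2 scale, against 346 higher and 291 lower and a median of 0.05 where A or T was outside. To let the cut itself be seen, the 2 ends with the smallest p that rose and the 2 that fell are printed with their surroundings. Each window is read 5′ to 3′ on the strand that starts at the end, from outside into the fragment, in the RefSeq copy of the TAIR10 sequence, and the capitals mark the first base outside followed by the last base inside.
Intron 6, downstream end at 3174502, rose, chr5:3174492-3174511, plus strand: aataacttcATctgatttcc
Intron 1, upstream end at 3176228, rose, chr5:3176219-3176238, minus strand: cattttataTTgcatcaatt
Upstream flank, upstream end at 3180975, fell, chr5:3180966-3180985, minus strand: ctttgtaggTTtggtttggt
Exon 2, downstream end at 3175620, fell, chr5:3175610-3175629, plus strand: tttaagatcATcagcatgct
All 4 have A or T on both sides of the cut, so these windows do not show the difference in the outside base. The end at 3180975, in the upstream flank, had a share of 0.164%, 0.173% and 0.178% in the warm and 0.0661%, 0.0536%, 0.0858% and 0.0637% in the cold, which fell by 1.25 ± 0.24 (SE) with a limma adjusted p = 0.0258. The end at 3174502, in intron 6, went the other way, from 0.0466%, 0.0815% and 0.0778% to 0.155%, 0.140%, 0.134% and 0.128%, a rise of 0.96 ± 0.22 (SE) with an adjusted p = 0.0291. The intron 1 end at 3176228 rose by 0.96 ± 0.24 and another intron 1 end, at 3176718, by 1.01 ± 0.26, each without overlap and with an adjusted p = 0.0463. Counts of single end positions depended strongly on which libraries entered: 0 passed without WT FRI warm replicate 1 or WT FRI 1W cold replicate 2, 1 without WT FRI 1W cold replicate 3, 7 without WT FRI warm replicate 2, 10 without WT FRI 1W cold replicate 4, 98 without WT FRI warm replicate 3 and 203 without WT FRI 1W cold replicate 1.

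Mean shares of the gene parts differed between cold and warm by -1.36 percentage points (exon 1) to 1.15 points (the first piece of intron 1). Intron 6 held 7.56%, 8.18% and 8.44% of fragments in the warm and 8.68%, 9.36%, 8.94% and 8.74% in the cold. Exon 7, the last exon, held 5.60%, 6.01% and 5.10% in the warm and 4.83%, 4.17%, 4.54% and 4.81% in the cold. In both parts the groups did not overlap, with differences of 0.87 and -0.98 percentage points and an exact permutation p = 0.0286, but adjusted over 10 parts this was 0.143 and neither passed. That p is the smallest that 3 libraries against 4 allow, so no part could pass unless most of the 10 reached it. The other 8 parts overlapped between the groups. Exon 1 had the widest difference among them, at 7.17%, 6.60% and 4.96% in the warm and 5.79%, 4.23%, 4.65% and 4.88% in the cold (exact p = 0.143). The first of the 3 pieces of intron 1 was at 9.15%, 9.31% and 10.9% against 11.1%, 11.2%, 10.9% and 10.6% (exact p = 0.0857). The remaining parts had exact p-values of 0.114 to 0.486.

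**Figure D4:**
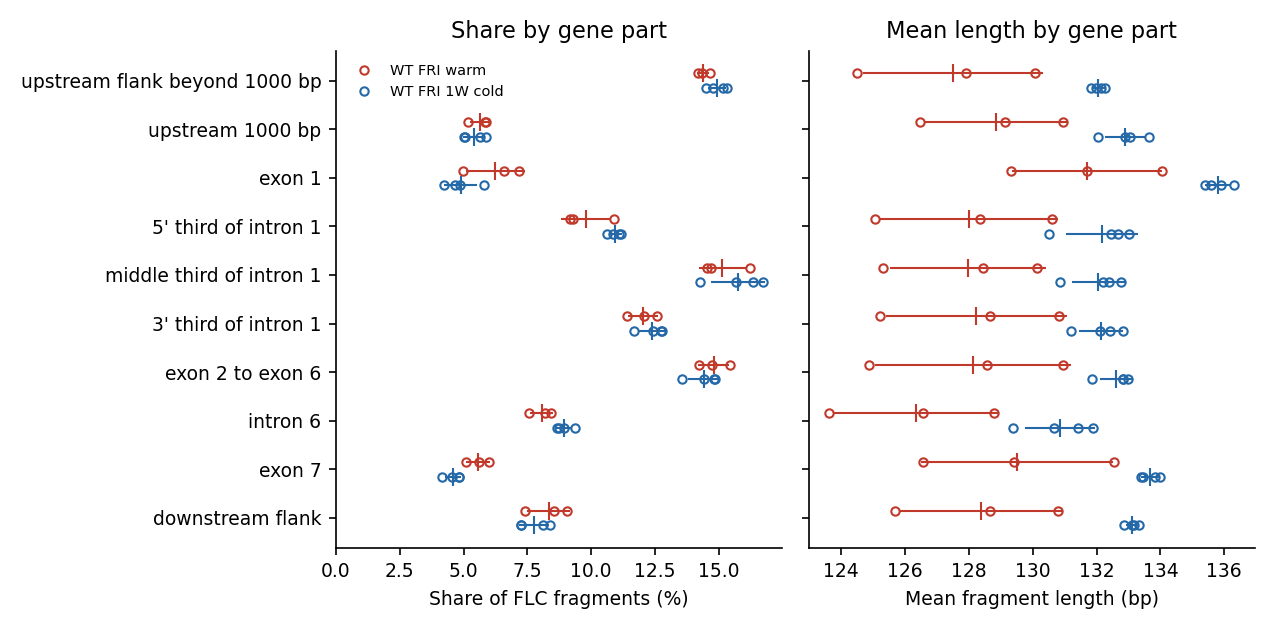
Share of *FLC* fragments (left, percent) and mean fragment length (right, bp, axis not starting at 0) in 10 parts of the locus in the direction of transcription, with an open circle per library, a vertical tick for the mean and a bar of 1 SD (red for 3 WT FRI warm, blue for 4 WT FRI 1W cold libraries). Shares differ without overlap in intron 6 and exon 7 only, whereas mean length differs without overlap in 9 of 10 parts.

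Within the parts, few 100 bp bins changed. Of 96 bins, 2 rose and 0 fell in share by midpoint (2.08%). One lies in intron 1 just behind exon 1, centred 416 bp downstream of the TSS. It held 0.704%, 0.687% and 0.739% of fragments in the warm and 1.09%, 1.10%, 1.04% and 0.942% in the cold, a rise of 0.55 ± 0.094 (SE) on the log2 scale with a limma adjusted p = 0.00462. The other lies in intron 6, 4916 bp downstream, and went from 1.04%, 1.17% and 1.21% to 1.38%, 1.69%, 1.62% and 1.53%, a rise of 0.44 ± 0.095 (SE) with an adjusted p = 0.0184. The groups did not overlap in either bin. Both bins are shown on the gene's strand, 5′ to 3′, to give the DNA whose share rose, and the capital in the second marks the downstream end at 3174502 that rose with it.
Intron 1 bin, chr5:3178982-3179081, minus strand: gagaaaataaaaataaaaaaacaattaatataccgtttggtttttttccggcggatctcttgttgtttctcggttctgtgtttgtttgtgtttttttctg
Intron 6 bin, chr5:3174482-3174581, minus strand: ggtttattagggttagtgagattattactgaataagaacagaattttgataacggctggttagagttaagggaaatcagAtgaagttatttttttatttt
Without WT FRI 1W cold replicate 1, 8 bins rose and 4 fell, without WT FRI warm replicate 3, 8 rose and 3 fell, and only the intron 1 bin passed without any one of WT FRI warm replicate 1 or 2 or WT FRI 1W cold replicate 2 or 3. With each distinct fragment counted once, neither passed, with rises of 0.27 and 0.25 on the log2 scale.

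The start of intron 1 showed several changes, which depended on the libraries and on the fragment frequencies. At the nucleosome position 461 bp downstream, midpoints were less spread in the cold, with an SD of 32.6, 36.0 and 36.5 bp in the warm and 24.9, 29.1, 31.0 and 30.6 bp in the cold, a difference of -6.10 ± 1.38 bp (SE) with a limma adjusted p = 0.0156. Downstream ends in the bin 516 bp downstream rose from 0.858%, 0.802% and 1.06% to 1.52%, 1.31%, 1.21% and 1.16%, and those in the next bin, 616 bp downstream, fell from 0.585%, 0.618% and 0.697% to 0.391%, 0.429%, 0.532% and 0.490%, each with an adjusted p = 0.0373. Farther on, at the position 915 bp downstream, the mean midpoint lay at 926.1, 923.0 and 927.2 bp in the warm and at 929.3, 934.2, 935.7 and 935.1 bp in the cold. This was a move of 8.12 ± 2.13 bp (SE) away from the TSS, with an adjusted p = 0.0238, and the midpoints there also became more spread, by 5.15 ± 1.07 bp with an adjusted p = 0.0145. Counting each distinct fragment once, the spread at 461 bp differed by -1.89 bp. In that setting the ends at 516 and 616 bp differed by 0.24 and -0.07 on the log2 scale. The midpoint at 915 bp then moved by 2.72 bp and its spread by 2.38 bp. Without WT FRI warm replicate 2, no bin by downstream ends, no midpoint and no lower spread passed.

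At the 5′ end the mean midpoint of the +1 nucleosome, the first one downstream of the TSS, moved. The mean midpoint of the fragments assigned to its position lay at 148.3, 157.3 and 150.2 bp in the warm and at 138.4, 136.5, 137.7 and 138.0 bp in the cold. The cold values lay close together and none reached the warm range, and the mean moved 14.3 ± 2.96 bp (SE) towards the TSS with a limma adjusted p = 0.0160. The move was -8.07 bp with each distinct fragment counted once, and it no longer passed without WT FRI warm replicate 2 (-11.6 bp) or WT FRI 1W cold replicate 2 (-13.9 bp). Its spread did not differ detectably, at 26.4, 33.2 and 31.2 bp against 30.0, 31.3, 30.0 and 30.7 bp, nor did its share, at 2.90%, 2.53% and 1.92% against 2.39%, 1.69%, 1.83% and 2.04%. The midpoint share of the bin 216 bp downstream, between the +1 and +2 positions, differed by -0.93 ± 0.32 (SE) on the log2 scale (limma adjusted p = 0.0974). Part of that bin lies within 70 bp of the +1 position. Midpoint shares nearer the TSS did not rise. In the bins 116 and 16 bp downstream they differed by -0.06 ± 0.20 and -0.49 ± 0.16 (SE), with limma adjusted p = 0.886 and 0.0961. How far these bins account for the move of the mean was not tested. Both ends of the +1 fragments lay nearer the promoter in the cold. Upstream ends in the bin 16 bp downstream rose from 0.546%, 0.518% and 0.478% to 1.02%, 0.723%, 0.695% and 0.782%, by 0.62 ± 0.13 (SE) on the log2 scale. Those in the next bin, 116 bp downstream, went from 2.70%, 2.68% and 1.81% to 1.71%, 1.11%, 1.28% and 1.45% and fell by 0.78 ± 0.16, both with a limma adjusted p = 0.0159. With each distinct fragment counted once, these 2 differences were 0.071 and -0.505, and 0 bins by upstream ends passed. The single downstream ends at 166 and 169 bp also rose, from 0.139%, 0.0940% and 0.0707% to 0.146%, 0.192%, 0.225% and 0.237%, and from 0.0580%, 0.0501% and 0.0561% to 0.163%, 0.0977%, 0.0887% and 0.107%. With each distinct fragment counted once, the end at 166 bp had the opposite sign, -0.33 on the log2 scale, and neither end passed without WT FRI warm replicate 1 or 2 or without WT FRI 1W cold replicate 2, 3 or 4. At the -1 position, 135 bp upstream, the mean midpoint overlapped between the groups, and the spread rose by 3.73 ± 1.28 bp with an adjusted p = 0.0495. The +2 position, at 284 bp, differed in neither midpoint (4.33 ± 2.70 bp, adjusted p = 0.313) nor spread (-3.85 ± 1.50 bp, adjusted p = 0.0742).

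At the far end of intron 1 the ends that mark a nucleosome over exon 2 became rarer. The position 3759 bp downstream held 3.33%, 3.21% and 2.89% of fragments in the warm and 2.18%, 2.44%, 2.46% and 2.55% in the cold, without overlap, although its limma adjusted p was 0.0593. Its midpoints became more spread, from an SD of 29.8, 32.1 and 34.1 bp to 38.2, 38.7, 35.8 and 35.7 bp, by 5.08 ± 1.25 bp with an adjusted p = 0.0200. Upstream ends in the bin 3716 bp downstream fell from 2.89%, 2.68% and 2.29% to 1.64%, 1.75%, 1.94% and 1.99% (adjusted p = 0.0480), and downstream ends in the bin that holds exon 2 fell from 2.67%, 2.51% and 2.16% to 1.36%, 1.68%, 1.78% and 1.80% (adjusted p = 0.0373). On the log2 scale these bins differed by -0.51 and -0.56, and by -0.31 and -0.29 with each distinct fragment counted once. The spread then rose by 3.29 bp. No bin by upstream or downstream ends passed without WT FRI warm replicate 2. Of 10 single downstream end positions tested within exon 2, all 10 had a lower fitted share in the cold and 5 passed. Over all 876 end positions tested, 466 had a lower fitted share and 27 passed as lower. Ends in this stretch were among those with the smallest p and belong to overlapping fragments, so the count is not separate support. The stretch is shown on the gene's strand, with the end of intron 1 first and exon 2 from 3175661 to 3175604. Capitals mark the 5 ends in exon 2 that passed.
Exon 2 and the end of intron 1, chr5:3175604-3175721, minus strand: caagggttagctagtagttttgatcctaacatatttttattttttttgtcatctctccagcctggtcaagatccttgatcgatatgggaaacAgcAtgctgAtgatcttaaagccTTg
The end at 3175620 was the most frequent of those named, at 0.335%, 0.253% and 0.205% in the warm and 0.0849%, 0.106%, 0.118% and 0.112% in the cold, which fell by 1.23 ± 0.24 (SE) on the log2 scale with an adjusted p = 0.0258. A fragment with this end and one with the called end at 3175629 also fell. The 134 bp fragment that starts at 3175629 went from 0.0482%, 0.0167% and 0.0176% to 0.00236%, 0.00331%, 0.00362% and 0.00785%, and the 132 bp fragment that starts at 3175620 from 0.0638%, 0.0188% and 0.0131% to 0.00218%, 0.00771%, 0.00386% and 0.00502%, each with an adjusted p = 0.0451.

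Just downstream, 2 fragments over exon 3 and intron 2 became more frequent. They share their upstream end at 3175514 and differ by 5 bp at the other end. The 147 bp fragment that starts at 3175368 was at 0.000817%, 0.00418% and 0.0117% in the warm and 0.0234%, 0.0264%, 0.0195% and 0.0266% in the cold, a rise of 2.06 ± 0.49 (SE) on the log2(share + 0.00002) scale. The 142 bp fragment that starts at 3175373 was at 0.00409%, 0% and 0.0214% against 0.0155%, 0.0584%, 0.0653% and 0.0390%, with overlap between the groups and a rise of 2.65 ± 0.61. Both had a limma adjusted p = 0.0451. The stretch is shown on the gene's strand because 1 upstream end serves both fragments, and the capitals mark the 3 terminal bases.
Exon 3 and intron 2, chr5:3175368-3175514, minus strand: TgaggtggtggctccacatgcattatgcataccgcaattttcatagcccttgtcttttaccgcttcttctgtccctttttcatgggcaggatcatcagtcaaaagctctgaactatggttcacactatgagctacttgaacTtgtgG
Over the locus, 1070 fragments with a mean share of at least 0.0001 were tested, and 4 rose and 7 fell (1.03%). The other 2 that rose were a 142 bp fragment upstream of the TSS that starts at 3179577, from 0.00654%, 0.00418% and 0.0166% to 0.0148%, 0.0661%, 0.0489% and 0.0530%, and a 149 bp fragment of intron 1 that starts at 3177798, from 0.0147%, 0% and 0.0279% to 0.0323%, 0.0661%, 0.0793% and 0.0774%. The first of these overlapped between the groups and the second did not. A 101 bp fragment past the end of the gene, from 3173302, and fragments of 103 and 144 bp in intron 6, from 3174563 and 3173958, differed by -1.99, -1.98 and -1.81 on the log2 scale without overlap. Which fragments are called is unstable, since 0 passed without WT FRI warm replicate 1 or WT FRI 1W cold replicate 2 or 3, 1 without WT FRI 1W cold replicate 4, 4 without WT FRI warm replicate 2, 127 without WT FRI 1W cold replicate 1 and 179 without WT FRI warm replicate 3. With each fragment's own spread in place of the moderated one, 0 passed and 256 were at an unadjusted p below 0.05.

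At the 3′ end of the gene the downstream ends in 1 bin of the last exon fell, while neither the share of exon 7 nor that of its main position passed. The position 5645 bp downstream, at the start of exon 7, held 4.40%, 4.53% and 3.76% of fragments in the warm, and 3.12%, 2.79%, 3.25% and 3.42% in the cold. The groups did not overlap, with a difference of -0.43 ± 0.11 (SE) on the log2 scale and a limma adjusted p = 0.0593. Downstream ends in the bin 5716 bp downstream fell from 4.14%, 4.28% and 3.41% to 2.80%, 2.51%, 2.95% and 3.14% (adjusted p = 0.0373), and the midpoints of the position became more spread by 3.48 ± 0.997 bp (adjusted p = 0.0382). In intron 6 the mean midpoints at 4871 and 5174 bp moved downstream, by 5.29 ± 1.47 and 5.08 ± 1.56 bp (adjusted p = 0.0277 and 0.0309). Counting each distinct fragment once, the ends at 5716 bp differed by -0.28 on the log2 scale. The spread at 5645 bp then differed by 2.35 bp, and the midpoints at 4871 and 5174 bp by 4.60 and 1.89 bp. Without WT FRI warm replicate 2, no bin by downstream ends and no midpoint passed. At the position nearest the end of the transcript, 6073 bp downstream, the share was 1.33%, 2.32% and 1.67% in the warm and 1.26%, 0.996%, 0.926% and 1.04% in the cold, without overlap and with an adjusted p = 0.128, and neither its midpoint (adjusted p = 0.794) nor its spread (adjusted p = 0.107) passed.

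**Figure D5:**
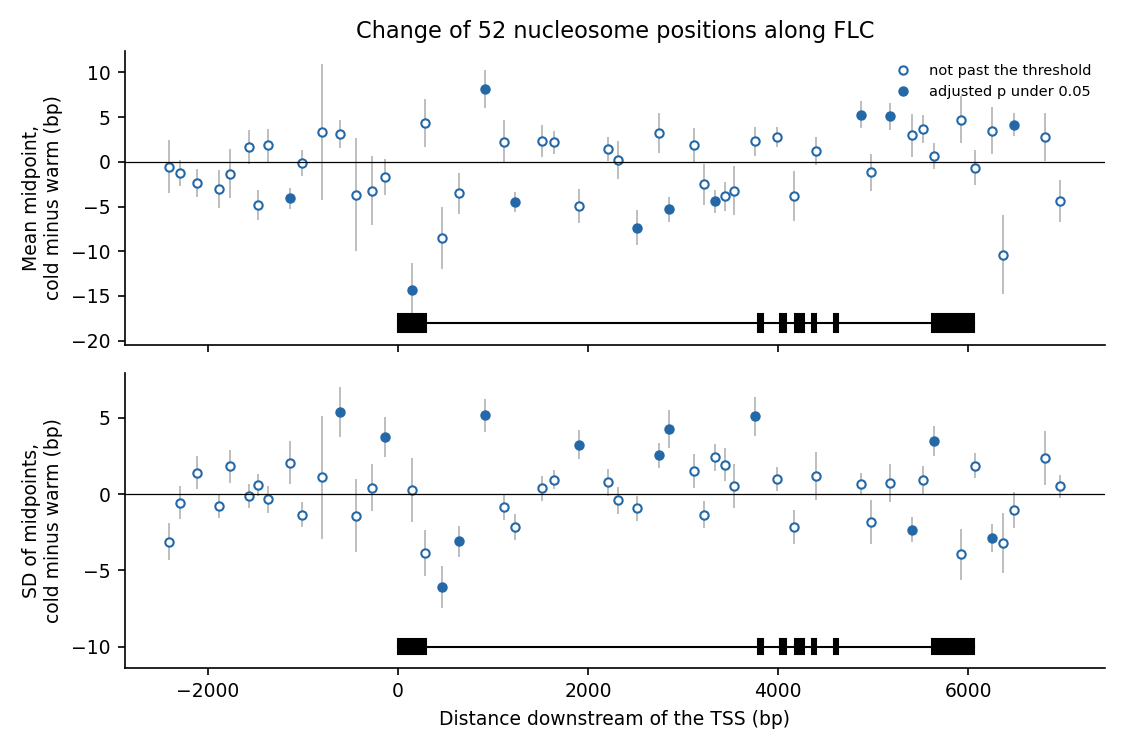
Fitted change from warm to cold of the mean midpoint (top, bp, positive downstream) and of the SD of midpoints (bottom, bp) at 52 nucleosome positions, with standard errors, against the distance from the TSS in bp, with exons as black boxes and filled points where the adjusted p is below 0.05. The largest move is that of the +1 position, 14.3 bp towards the TSS, and the called changes of spread go both ways.

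Across the 52 positions, 4 mean midpoints moved downstream and 6 upstream (19.2%), and midpoints became more spread at 8 positions and less spread at 4 (23.1%). Upstream ends changed in 3 of 95 bins (3.16%) and downstream ends in 10 of 96 (10.4%). Among the latter, downstream ends rose in bins of intron 1 at 2416, 3216 and 3316 bp, by 0.39 to 0.53 on the log2 scale, and in the last exon at 5816 bp by 0.57, and fell in the upstream flank at -1584 bp by 0.46. In share, 0 of 52 positions (0%) passed by limma, with 11 at an unadjusted p below 0.05, and 0 with each position's own spread. The position at 2311 bp, in intron 1, was the only one of the 3 with the smallest p that was higher in the cold, at 1.05%, 0.909% and 1.17% against 1.22%, 1.58%, 1.44% and 1.47% (adjusted p = 0.0593). The other 9 moves were smaller than that of the +1, from 4.09 to 8.12 bp. Beside those already described, the position at 6484 bp moved downstream by 4.18 ± 1.25 bp and those at 1234, 2515, 2854 and -1134 bp moved upstream, with differences of -4.46, -7.36, -5.29 and -4.09 bp. At 2515 bp the groups overlapped, since WT FRI 1W cold replicate 1 lay at 2518.0 bp among the warm values of 2519.9, 2519.5 and 2517.6 bp and the other 3 cold libraries at 2509.2 to 2509.8 bp. Spread rose also at 2854 and 1907 bp, by 4.27 and 3.24 bp, and was lower at 645, 6254 and 5409 bp, with differences of -3.10, -2.87 and -2.32 bp. Many rested on single libraries or on the fragment frequencies. When each distinct fragment counted once, 3 midpoints, 0 spreads, 0 bins by upstream ends and 1 bin by downstream ends passed. Without WT FRI warm replicate 2, 0 midpoints, 1 spread, 0 bins by upstream ends and 0 bins by downstream ends passed. Without WT FRI warm replicate 1 these counts were 2, 1, 0 and 0, and without WT FRI 1W cold replicate 2 they were 0, 2, 1 and 0. Without WT FRI 1W cold replicate 3 they were 1, 4, 1 and 0. Leaving out WT FRI 1W cold replicate 1 raised bins by upstream ends to 11, and leaving out WT FRI warm replicate 3 raised them to 10 and positions by share to 8. Without WT FRI 1W cold replicate 4, 1 midpoint and 1 bin by downstream ends passed.

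Whole profiles stayed alike. Pearson's r of smoothed midpoint profiles over the locus was 0.952 to 0.964 within the warm (3 pairs), 0.929 to 0.996 within the cold (6 pairs) and 0.897 to 0.969 between them (12 pairs), where r describes positions along 1 locus and neighbouring positions are not independent. WT FRI warm replicate 3 was the warm library most like the cold ones, at 0.949 to 0.969. The autocorrelation of each profile was highest at 120 bp, the lowest lag examined, in all 7 libraries, with r from 0.0989 to 0.193, so a repeat length could not be read from the locus.

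The depth and the lengths moved together within the warm group. The libraries with 14166, 27911 and 90960 distinct fragments had mean lengths of 125.4, 128.6 and 130.7 bp. In the cold the order was the opposite. Libraries with 46448, 57743, 67895 and 109647 distinct fragments had mean lengths of 132.9, 132.7, 132.4 and 131.7 bp. When each distinct fragment was counted once, the mean length differed by 2.41 bp (exact p = 0.0286). Which distinct fragments are seen also depends on depth, and a part played by depth was not tested. The extent of digestion was not measured apart from the fragments, and digestion and temperature cannot be told apart here.

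The response of *vrn1-4* FRI had the same signs in 4 of the 5 length classes, and whether these shares responded differently could not be decided. VRN1 is a plant-specific DNA-binding protein needed to keep *FLC* silent. In *vrn1-4* FRI fragments of 140 to 150 bp made up 28.4% in the warm and 33.0% in the cold on average, a change of 4.55 percentage points beside 12.3 in WT FRI. The difference of 7.70 points had a permutation p = 0.303 over 1400 arrangements of the genotype labels. Of 15 class and part shares compared in this way the smallest p was 0.279, and 0 passed after adjustment (all 0.874). Labels were exchanged within the warm and within the cold, so a difference in level between the genotypes also widens these arrangements. The permutation test therefore cannot decide whether the responses differed. By the interaction term of limma, 0 of 51 lengths differed between the genotypes. Among the lengths named above, the unadjusted p of that term was 0.0175 to 0.152 and the adjusted p 0.308 to 0.331. By the same term, 1 of 96 bins by share and 1 of 96 bins by mean length differed. The first was the intron 1 bin 416 bp downstream, with WT FRI means of 0.710% and 1.04% against 0.642% and 0.604% in *vrn1-4* FRI warm and cold (limma adjusted p = 0.0296 for the difference). No bin by share differed without any one of WT FRI warm replicates 1, 2 and 3 or WT FRI 1W cold replicates 2 and 3, nor with each distinct fragment counted once or with the replicate number as a block. Without WT FRI warm replicate 3, 5 lengths, 10 bins by mean length and 12 positions by mean length differed between the genotypes.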

How the data were processed

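Nuclei of whole seedlings were digested with MNase, and the libraries were enriched for *FLC* with tiled capture baits. The submitters' processing notes name fastp, Bowtie2, SAMtools 1.5 and TAIR10, and whether duplicates were removed is not given in the sources used here. The deposited values are fractions: the authors divided the frequency of each distinct fragment of 100 to 150 bp by the total over *FLC* in its library. They carry no depth, so counting error cannot be stated.

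From these fractions, shares were summed by length, by midpoint and by end in 100 bp bins, in 10 annotated parts and at 52 nucleosome positions, which are maxima of the mean midpoint profile of the 4 groups smoothed with an SD of 20 bp, with fragments within 70 bp of them. For single values, exact permutation tests (two-sided, 35 arrangements of warm and cold) were run and adjusted within each family by the Benjamini-Hochberg method. Features were tested with limma 3.58.1 in R 4.3.3 over all 14 libraries in 4 groups, on log2(share + 0.0001) for bins with a mean share above a minimum, log2(share + 0.00002) for fragments, and bp for lengths and midpoints, with a threshold of 0.05 on the adjusted p. Python 3.11.15 with numpy 2.4.6, pandas 2.3.3 and scipy 1.17.1 was used. The limma step was run on simulated data with independent noise in each feature. Such data lack the shared shifts within a library, so false calls under those shifts were not tested. The features named are the 5 with the smallest p in each direction among those that passed, or 3 where none did, plus all classes and parts and the positions nearest -1, +1, +2 and the transcript's end. DNA is printed for at most 8 of them. Members and lists were chosen with earlier results of these data known. Alternatives covered the libraries used, the replicate block, the weights, lengths, bins, pseudocounts, filters and position settings.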

Additional observations from a re-analysis of the deposited data

Results flagged for a closer look

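In 132 sets of values from the 4 WT FRI 1W cold libraries, 1 library lay farther from the others than Dixon's 95% limit allows in 7 sets, a number near the 1 in 20 that chance flags. WT FRI 1W cold replicate 1 was that library in 6 of the 7. It had A or T as the last base inside at 87.1% of upstream and 87.0% of downstream ends, against 91.3% to 91.9% in the other 3. Its mean length over exon 2 to exon 6 was 131.8 bp against 132.8 to 133.0 bp, its mean midpoint at the intron 1 position at 2515 bp was 2518.0 bp against 2509.2 to 2509.8 bp, and its fragments at the +2 position were 6.01 bp longer than its library mean against 4.39 to 4.63 bp. The 103 bp fragment of intron 6 that starts at 3174563 made up 0.00672% of it, against 0.000735% to 0.00153%. WT FRI 1W cold replicate 2 stood apart only in the 144 bp fragment of intron 6 that starts at 3173958, at 0.00184% against 0.00523% to 0.00533%.

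The response to cold differed between WT FRI and *vrn1-4* FRI in 2 bins by the interaction term of limma. In the intron 1 bin 416 bp downstream of the TSS the change in share was larger in WT FRI by 0.63 ± 0.13 (SE) on the log2 scale (adjusted p = 0.0296). This call was lost when any one of WT FRI warm replicates 1, 2 and 3 or WT FRI 1W cold replicates 2 and 3 was left out, under the replicate block and with each distinct fragment counted once. In the bin at -884 bp, in the upstream flank, the mean length changed from 130.7 to 133.6 bp in WT FRI and from 140.2 to 133.8 bp in *vrn1-4* FRI, a difference of 9.35 ± 2.09 bp (adjusted p = 8.09e-04). The standard error is a value shared by all bins in this fit and does not measure the spread of this bin. It held only 0.0680% to 0.123% of fragments in the WT FRI libraries, and the *vrn1-4* FRI warm libraries ranged from 135.6 to 144.1 bp. With each distinct fragment counted once, no bin differed between the genotypes in mean length.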

How the results depend on the processing

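Which bins, positions and fragments passed depended on the libraries and weights more than the length shift did, and the cause of each change listed here was not tested unless the setting itself removes samples or fragments. Leaving out each WT FRI library in turn gave 18 to 44 lengths, 42 to 92 bins and 24 to 52 positions by mean length, 0 to 3 bins and 0 to 2 positions by relative length, 1 to 12 bins by share, 0 to 11 by upstream and 0 to 13 by downstream ends, 0 to 8 positions by share, 0 to 14 by midpoint and 1 to 16 by spread, 0 to 179 fragments and 0 to 203 single ends. Exact tests of single values cannot pass then, since 2 against 4 libraries allow no p under 0.0667 and 3 against 3 none under 0.1, so only sizes are given there.

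With only the 7 WT FRI libraries, 1 bin by share, 11 by upstream and 16 by downstream ends, 10 positions by share, 1 by midpoint and 7 by spread passed, and 0 fragments and 0 single ends. Without moderation of the spread 7 bins by downstream ends (2 rose, 5 fell, so the balance turned), 1 position by spread, 0 fragments and 7 single ends passed. With each distinct fragment counted once, 0 bins by share, 0 by upstream and 1 by downstream ends, 3 positions by midpoint, 0 by spread and 3 of 142 single ends tested passed. In that setting the 120 to 129 bp class differed by -1.16 points and the 130 to 139 bp class by 1.71 points (exact p = 0.0286), opposite in sign to the main value, the upstream 1000 bp by 0.42 points and exon 7 by -0.16 points, mean lengths rose by 1.95 bp in exon 1 and 2.503 bp in the first piece of intron 1, the spread at 5409 bp differed by 0.035 bp and the end at 3179282 by -0.33 on the log2 scale, both with the sign turned. With lengths standardised, 1 bin by upstream and 6 by downstream ends, 6 positions by share, 5 by midpoint and 36 fragments passed. With 130 to 150 bp fragments alone, 4 bins by share, 0 by downstream ends and 4 positions by midpoint passed, intron 6 differed by 1.01 and exon 7 by -1.10 points, and exon 1 by 1.00 bp in length. Without the 200 most frequent fragments 12 single ends passed, intron 6 differed by 0.84 and exon 7 by -0.63 points, and the first piece of intron 1 by 4.25 bp in length. Bins moved by 50 bp gave 4 by share, 1 by upstream and 2 by downstream ends, and bins of 200 bp gave 4, 47 by mean length and 5 by downstream ends. Smoothing with an SD of 30 bp gave 4 positions by share, 5 by midpoint and 7 by spread, and fragments within 50 bp gave 3 by share and 2 by spread. A pseudocount 10 times smaller gave 0 fragments and 17 single ends, one 10 times larger 55 and 21, and 4 positions by share, and no filter 0 single ends.

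The replicate numbers did not pair the libraries: deviations of same-numbered warm and cold libraries correlated at -0.027, -0.054 and 0.048. With the replicate number as a block over replicates 1 to 3, 43 lengths, 84 bins by mean length, 6 by share, 8 by upstream ends and 3 fragments passed, against 3 bins by share, 7 by upstream ends, 4 fragments, 5 positions by share and 2 bins by relative length for the same libraries without the block. The paired mean length difference was 4.21 bp, where 3 pairs allow no p under 0.25.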
